A study of Rattus norvegicus with 6 samples.

Results

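The small heat shock proteins of muscle and their co-chaperone Bag3 were followed in cultured neonatal rat ventricular myocytes, the beating muscle cells of the newborn rat heart. The members were chosen by symbol: Hspb1, Hspb2, Hspb3, Cryab, Hspb6, Hspb7, Hspb8 and Bag3. Of these 8 symbols, 7 had a row among the 13843 features of the deposited table, each on a single row, and Hspb2 was not analysed here. All 7 averaged 1 FPKM or more over the libraries, as did 10359 features, and these were tested. FPKM counts fragments per transcript length and sequencing depth, so levels of different genes can be set side by side, though only roughly. The members and the gene lists below were chosen with earlier results of these data known, so counts of calls among them are a description.

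The study holds 6 RNA sequencing libraries in 3 groups of 2, all from cultures given phenylephrine (PE), which stimulates alpha-1 adrenergic receptors and makes cardiomyocytes grow. PE+TSA+shJIP1 cultures received PE, TSA and a short hairpin RNA against JIP1, PE+TSA cultures received PE, TSA and a control hairpin, and PE cultures received PE and the control hairpin, each for 3 days. The labels give TSA without its full name; it commonly stands for trichostatin A, which blocks histone deacetylases. The series title speaks of a knockout of JIP1, while the treatment is given as a hairpin. JIP1, the product of Mapk8ip1, is a scaffold of the JNK kinase cascade. Cultures without PE, and the JIP1 hairpin without TSA, were not analysed here. Nothing in the labels ties the 2 libraries of a group to separate cultures; the p-values therefore refer to a spread between libraries that may be technical.

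Small heat shock proteins share an alpha-crystallin domain, assemble into oligomers and bind unfolding proteins without using ATP. In striated muscle they sit on actin, desmin and titin filaments, and their load is passed on to the HSP70 machinery for refolding or breakdown. Bag3 joins small heat shock proteins, chiefly Hspb8, to HSP70 and to the autophagy machinery, a route known as chaperone-assisted selective autophagy. Inherited variants of CRYAB and BAG3 cause myofibrillar myopathy and cardiomyopathy in humans. Heat shock factor Hsf1 is the classical activator of several of these genes and binds inverted repeats of the letters GAA.

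The libraries were of unequal depth and unequal summed level. All features summed to 401714 FPKM in PE replicate 2 and to 1074800 FPKM in PE+TSA+shJIP1 replicate 1, the lowest and highest sums. The largest single value was 211779 FPKM in PE+TSA+shJIP1 replicate 1, 121180 FPKM in PE+TSA replicate 2 and at most 36592 FPKM elsewhere. Whole-read steps among the lowest values placed PE replicate 2 at 20.8 times shallower than PE replicate 1 and the other 4 libraries at 0.722 to 1.34 of its depth. The total read counts are unknown. Fits below that leave out PE replicate 1 have the shallow PE replicate 2 as the only PE library. Mapk8ip1, the target of the hairpin, was at 1.8 and 3.65 FPKM in PE+TSA+shJIP1, 14.6 and 17.9 FPKM in PE+TSA, and 3.77 and 4.39 FPKM in PE. Defining cardiomyocyte transcripts were present in every library, with Tnnt2, cardiac troponin T, at 1835 to 7215 FPKM. The summed level of 10 cardiomyocyte markers was 7309 and 3435 FPKM in PE+TSA+shJIP1, 8627 and 3806 FPKM in PE+TSA, and 17705 and 14356 FPKM in PE. That of 8 smooth muscle and pericyte markers was 501 to 520.1 FPKM in PE+TSA+shJIP1, 267 to 411 FPKM in PE+TSA and 1358 to 1670.2 FPKM in PE, and that of 9 fibroblast markers was 575 to 693 FPKM in PE+TSA+shJIP1, 544 to 753 FPKM in PE+TSA and 1051 to 1704 FPKM in PE. Tnnt2 and Actc1 made up most of the cardiomyocyte sum in every library, and Col1a1 most of the fibroblast sum. Col1a2, another fibroblast marker, was at 0 FPKM in 5 of the 6 libraries. Endothelial and macrophage markers summed to at most 38.3 and 12.3 FPKM in any library. In such bulk samples, fewer cells of a type and less RNA per cell cannot be told apart.

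Cryab, which encodes alpha-B crystallin, the desmin-binding chaperone of heart and lens, was the highest member in every library. Its level was 7174 and 7675 FPKM in PE+TSA+shJIP1, 1225 and 1198.5 FPKM in PE+TSA, and 2389 and 1765 FPKM in PE. Both hairpin libraries stood above all others and both PE+TSA libraries below all others, with no overlap between groups. In both hairpin libraries it ranked 7 among all listed features by level, against 30 and 29 in PE+TSA and 16 in both PE libraries. Cryab and Hspb2 have overlapping spans in RefSeq's annotation of GRCr8. The sources used here do not state whether counting used the strand, and any Hspb2 reads counted as Cryab cannot be told apart.

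Hspb1, the rat Hsp27 (also Hsp25), which binds actin filaments and is phosphorylated downstream of p38, was at 2192 and 2248 FPKM in PE+TSA+shJIP1, 429 and 458 FPKM in PE+TSA, and 441 and 459 FPKM in PE. The PE+TSA and PE libraries overlapped, and the hairpin libraries lay far above both groups. Hspb6 (Hsp20), a target of protein kinase A that binds 14-3-3 proteins when phosphorylated, was at 449 and 379.7 FPKM in PE+TSA+shJIP1, 197 and 182 FPKM in PE+TSA, and 667 and 539 FPKM in PE. Here the PE libraries were highest, the hairpin libraries came between, and no 2 groups overlapped. The span of Hspb6 overlaps that of Lin37 in the same gene table. Lin37 was at 51.4 and 47.2 FPKM in PE+TSA+shJIP1, 29.4 and 47.8 FPKM in PE+TSA, and 43.1 and 19.8 FPKM in PE, well below Hspb6 in every library.

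Hspb7, the cardiovascular member, which binds filamin C and thin filaments, was at 594 and 245 FPKM in PE+TSA+shJIP1, 527 and 162 FPKM in PE+TSA, and 872 and 715 FPKM in PE. Hspb3, a muscle member that forms a complex with Hspb2, was at 25.5 and 17.6 FPKM in PE+TSA+shJIP1, 41.2 and 13.4 FPKM in PE+TSA, and 140.3 and 65.1 FPKM in PE. For both genes all 4 libraries with TSA lay below both PE libraries, and the hairpin and PE+TSA groups overlapped. The 2 libraries differed widely within both TSA-treated groups for Hspb7, and within PE+TSA and PE for Hspb3. Replicate 1 was above replicate 2 in every group for both genes.

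Hspb8 (Hsp22), the main small heat shock partner of Bag3, was at 72.5 and 84.4 FPKM in PE+TSA+shJIP1, 68.2 and 98.4 FPKM in PE+TSA, and 92.9 and 85.8 FPKM in PE. Bag3 was at 44.8 and 53.5 FPKM in PE+TSA+shJIP1, 62.5 and 77.2 FPKM in PE+TSA, and 89.3 and 73.3 FPKM in PE. The hairpin libraries were the lowest for Bag3, without overlap with either group, whereas those of Hspb8 lay within the range of PE+TSA.

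**Figure D1:**
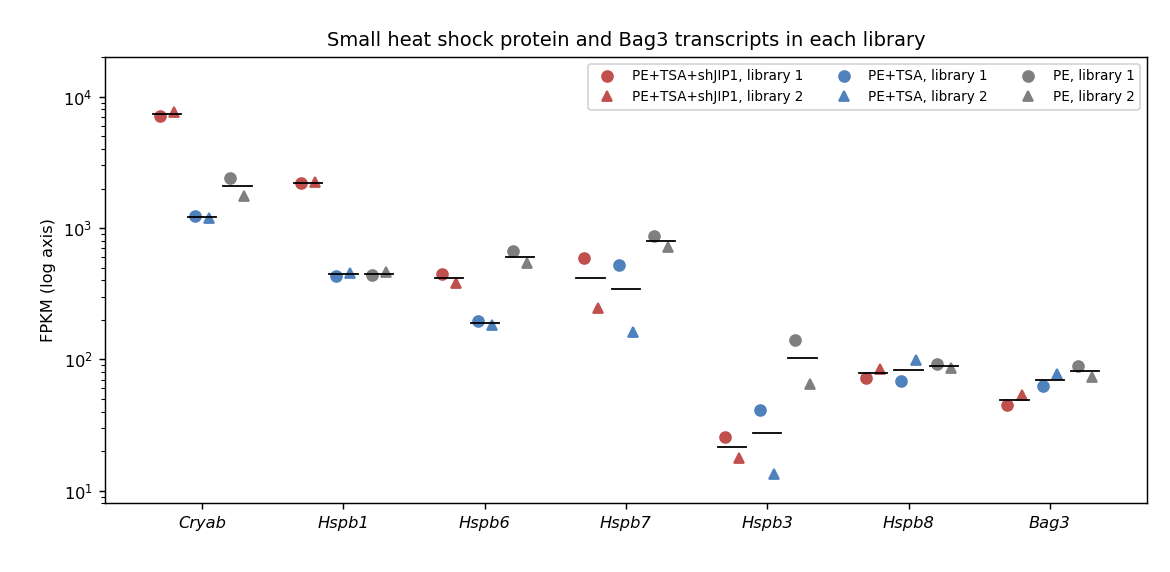
Level of each of the 7 listed members in FPKM (log axis) in each library, with PE+TSA+shJIP1 on the left, PE+TSA in the middle and PE on the right of each gene; circles are replicate 1, triangles replicate 2, and black bars the mean of 2 libraries. The hairpin libraries sit at 7174 and 7675 FPKM for Cryab and at 2192 and 2248 FPKM for Hspb1, above all others, while Hspb8 stays between 68.2 and 98.4 FPKM in all 6.

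The order of the members by level differed between the groups. In PE+TSA+shJIP1 Cryab was followed by Hspb1, then Hspb7 and Hspb6, whose libraries overlapped, then Hspb8, Bag3 and Hspb3, each apart from the next. In PE+TSA the ranges of Hspb1, Hspb7 and Hspb6 formed a chain of overlaps below Cryab, and those of Hspb8 and Bag3 overlapped above Hspb3. In PE the order was Cryab, Hspb7, Hspb6 and Hspb1, each apart from the next, and then Hspb3, Hspb8 and Bag3 with overlapping ranges. The summed level of the 7 members was 10551 and 10703 FPKM in PE+TSA+shJIP1, 2549 and 2189 FPKM in PE+TSA, and 4691 and 3703 FPKM in PE. Cryab made up 68% and 71.7% of that sum in PE+TSA+shJIP1, 48% and 54.8% in PE+TSA, against 50.9% and 47.7% in PE.

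The letters in front of the genes are shown for Hspb1 and Hspb6, the called members with an entry in the RefSeq promoter table of GRCr8, and for Bag3, as a member without a call. Each line gives the 250 bases before the start, 5′ to 3′ on the gene's strand. Capitals mark matches to the inverted pairs TTCNNGAA or GAANNTTC, the core of a heat shock element, and to the TATA box letters TATAAA.
Hspb1 (chr12:26432302-26432551, minus strand): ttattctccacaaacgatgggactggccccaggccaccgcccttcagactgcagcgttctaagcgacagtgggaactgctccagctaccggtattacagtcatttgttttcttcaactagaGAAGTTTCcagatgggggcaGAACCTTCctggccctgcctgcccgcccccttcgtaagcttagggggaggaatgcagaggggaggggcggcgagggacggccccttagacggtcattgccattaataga
Hspb6 (chr1:94934122-94934371, plus strand): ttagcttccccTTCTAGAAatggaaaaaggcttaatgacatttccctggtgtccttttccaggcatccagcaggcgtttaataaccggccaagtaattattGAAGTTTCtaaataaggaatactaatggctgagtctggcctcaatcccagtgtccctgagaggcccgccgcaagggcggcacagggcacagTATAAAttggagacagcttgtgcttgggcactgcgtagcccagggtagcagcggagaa
Bag3 (chr1:192533210-192533459, plus strand): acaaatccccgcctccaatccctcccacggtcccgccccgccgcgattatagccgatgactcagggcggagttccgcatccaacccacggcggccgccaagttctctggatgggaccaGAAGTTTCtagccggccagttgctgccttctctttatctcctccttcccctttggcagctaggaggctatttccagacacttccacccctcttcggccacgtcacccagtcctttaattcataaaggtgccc

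Of the 6 members with an entry, Hspb1, Hspb6, Hspb8 and Bag3 held the 8 letters GAAGTTTC, in Hspb1 from -129 to -122 before the start, in Hspb6 from -149 to -142, in Hspb8 from -23 to -16 and in Bag3 from -132 to -125. Hspb1 held a further pair, GAACCTTC, from -109 to -102, and Hspb6 a further TTCTAGAA from -239 to -232. Hspb3 and Hspb7 held neither inverted pair, and they, with Hspb6, held TATAAA. Among 33469 windows of the same length, 7.23% held GAANNTTC, 7.48% TTCNNGAA, 13.5% one or the other and 12.9% TATAAA, on either strand. With the hairpin, the log2 changes of the 4 genes that hold GAAGTTTC were 2.32 ± 0.21 for Hspb1, 1.12 ± 0.22 for Hspb6, -0.07 ± 0.24 for Hspb8 and -0.50 ± 0.22 for Bag3 (SE), and differences between these genes were not tested. These are matches of letters, not sites of binding, and the windows come from a later build than rn6, the build that the submitters' processing notes name.

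The first comparison addresses what TSA changes in PE-treated myocytes. Hspb6 was the member that fell: its level in PE+TSA averaged 189.6 ± 10.1 FPKM, against 603 ± 90.4 FPKM in PE (SD, n = 2 each). All changes below are differences on the log2(FPKM + 1) scale, tested with limma over all 10359 features. The change of Hspb6 was -1.66 ± 0.22 (SE), with a limma adjusted p of 0.0386, place 58 by p among all features. So 1 of 7 members fell and none rose, where 0.183% of all features fell, 0.627% rose and 0.811% passed in either direction. At an unadjusted p under 0.05 there were 3 of 7 members, beside 18.7% of all features. Leaving out any one library ended this call: without PE replicate 1 or 2 the limma adjusted p of Hspb6 was 0.0534 and 0.132, without PE+TSA replicate 1 or 2 it was 0.171 and 0.358, and without PE+TSA+shJIP1 replicate 1 or 2 it was 0.133 and 0.135, while the change kept its sign.

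The other 6 members did not pass with TSA. Hspb3 differed by -1.97 ± 0.58, Hspb7 by -1.43 ± 0.63 and Cryab by -0.76 ± 0.29 on the log2 scale (limma adjusted p = 0.165, 0.293 and 0.236). These 3 and Hspb6 were lower in both PE+TSA libraries than in either PE library, without overlap, as were 21.1% of all features tested. Hspb1, Hspb8 and Bag3 differed by -0.02 ± 0.21, -0.12 ± 0.24 and -0.22 ± 0.22, with overlapping groups. The 95% interval for Hspb1, -0.53 to 0.49, still allows a change of that size in either direction. The median change of the 7 members was -0.76 and that of all features 0.10. The summed cardiomyocyte markers given above were lower in both PE+TSA libraries than in either PE library, and the part of this in the members' values was not tested.

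The second comparison addresses the effect of the JIP1 hairpin on myocytes under PE and TSA, and the PE+TSA libraries serve in both comparisons. Cryab and Hspb1 rose. Cryab averaged 7424 ± 354 FPKM in PE+TSA+shJIP1 and 1212 ± 18.5 FPKM in PE+TSA (SD, n = 2 each), a ratio of group means of 6.13. Hspb1 averaged 2219.8 ± 39.7 FPKM in PE+TSA+shJIP1 and 443 ± 20 FPKM in PE+TSA (SD, n = 2 each), a ratio of 5.01. The log2 changes were 2.61 ± 0.29 for Cryab and 2.32 ± 0.21 for Hspb1 (limma adjusted p = 0.0403 and 0.0241). By p they took places 20 and 10 among all features. Thus 2 of 7 members rose and none fell, where 0.183% of all features rose, 0.106% fell and 0.29% passed in either direction. At an unadjusted p under 0.05 there were 3 of 7 members, beside 14.9% of all features.

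Leaving out any one library ended both calls of the hairpin comparison, although the changes barely moved, from 2.56 to 2.66 for Cryab and from 2.28 to 2.37 for Hspb1. Without PE replicate 1 or 2 the limma adjusted p of Hspb1 was 0.0628 and 0.0666 and that of Cryab 0.0717 and 0.0761. Without PE+TSA replicate 1 or 2 it was 0.174 and 0.171 for Hspb1 and 0.298 and 0.278 for Cryab, and without PE+TSA+shJIP1 replicate 1 or 2 it was 0.191 and 0.200 for Hspb1 and 0.292 and 0.306 for Cryab.

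Among the members that missed the threshold with the hairpin, Hspb6 was at 414 ± 48.8 FPKM in PE+TSA+shJIP1 and 189.6 ± 10.1 FPKM in PE+TSA (SD, n = 2 each), a log2 change of 1.12 ± 0.22 (limma adjusted p = 0.111). Its libraries did not overlap, and neither did those of 24.9% of all features in that direction. Bag3 differed by -0.50 ± 0.22 (limma adjusted p = 0.369) and was lower in both hairpin libraries, as were 25.1% of features. Hspb7, Hspb3 and Hspb8 differed by 0.38 ± 0.63, -0.15 ± 0.58 and -0.07 ± 0.24 with overlapping groups. The 95% intervals were -1.15 to 1.92 for Hspb7 and -1.56 to 1.27 for Hspb3, so that changes as large as 1 on the log2 scale in either direction lie within them, and -0.64 to 0.51 for Hspb8. The median change of the members was 0.38 and that of all features -0.003.

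**Figure D2:**
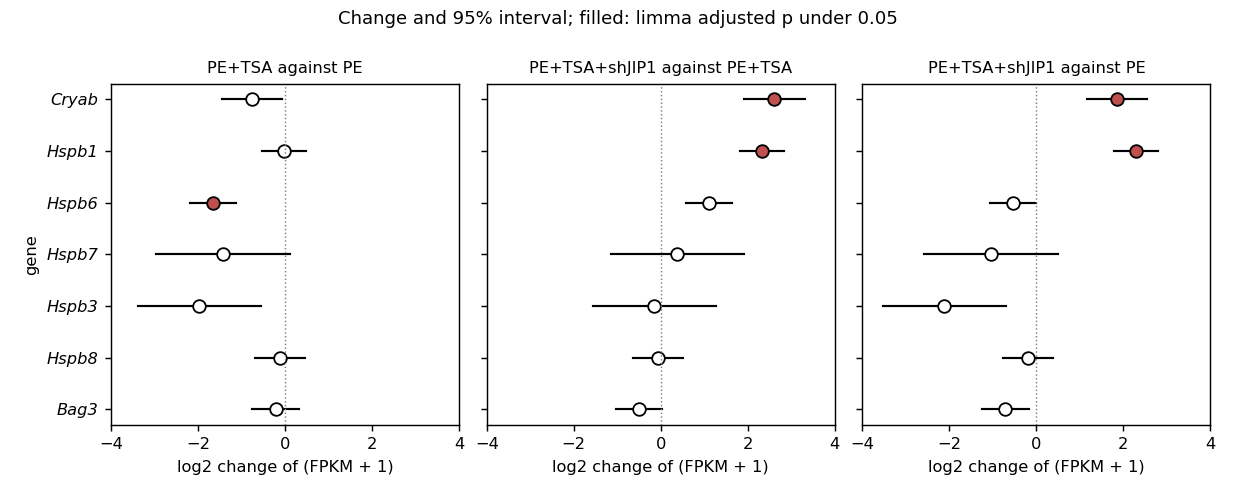
Log2 change of FPKM + 1 (horizontal axis) of each listed member in the 3 comparisons, with the unadjusted 95% interval from limma as a line; filled points have an adjusted p under 0.05 over 10359 features. Hspb6 is filled at -1.66 with TSA, Cryab and Hspb1 at 2.61 and 2.32 with the hairpin, and the lines are widest for Hspb7 and Hspb3.

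The third comparison sets TSA and the JIP1 hairpin together against PE alone. Hspb1 rose by 2.30 ± 0.21 and Cryab by 1.85 ± 0.29 on the log2 scale (limma adjusted p = 0.0115 and 0.0222), with ratios of group means of 4.94 and 3.57. Thus 2 of 7 members rose and none fell, where 4.11% of all features rose, 4.16% fell and 8.27% passed in either direction. Both lay above PE without overlap, as did 33.9% of features. At an unadjusted p under 0.05 there were 5 of 7 members, beside 30.7% of all features. Hspb3 differed by -2.12 ± 0.58, Bag3 by -0.71 ± 0.22, Hspb6 by -0.54 ± 0.22 and Hspb7 by -1.05 ± 0.63 (limma adjusted p = 0.0726, 0.0912, 0.159 and 0.308). These 4 and Hspb8, at -0.19 ± 0.24, were lower in both hairpin libraries than in either PE library, as were 26.7% of all features. The median change of the members was -0.54, against 0.10 for all features.

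Leaving out 1 library ended the calls against PE except without PE replicate 1, where the limma adjusted p was 0.022 for Hspb1 and 0.0325 for Cryab. The adjusted p was 0.0601 and 0.0874 for Hspb1 and Cryab without PE replicate 2. It was 0.0515 and 0.0752 when PE+TSA replicate 1 was left out, 0.0512 and 0.0744 without PE+TSA replicate 2, 0.0943 and 0.127 without PE+TSA+shJIP1 replicate 1, and 0.113 and 0.178 without PE+TSA+shJIP1 replicate 2. Without PE replicate 1 the PE group was the shallow PE replicate 2 alone, so the calls that held there rest on that library. With quantile normalization, which gives every library the same distribution, the changes of Cryab were smaller, at 0.99 against PE and 1.75 against PE+TSA (limma adjusted p = 0.0504 and 0.0519).

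The members were next set against Tnnt2, cardiac troponin T, in the same library, a scale chosen after the values were seen. Hspb7 varied least on this scale, at 13.6% and 13.3% of Tnnt2 FPKM in PE+TSA+shJIP1, 13.1% and 8.28% in PE+TSA, against 12.1% and 11.7% in PE. Its highest and lowest libraries differed 1.65-fold relative to Tnnt2, against 5.39-fold in FPKM. Hspb3 spanned 3.31-fold relative to Tnnt2 and 10.5-fold in FPKM.

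The other 5 members varied more on this scale than in FPKM. The highest and lowest libraries of Hspb8 differed 3.92-fold relative to Tnnt2 and 1.44-fold in FPKM, and those of Bag3 3.85-fold and 1.99-fold. Cryab was at 165% and 418% of Tnnt2 FPKM in PE+TSA+shJIP1, 30.5% and 61.4% in PE+TSA, against 33.1% and 29.0% in PE. Hspb1 was at 50.3% and 122% in PE+TSA+shJIP1, 10.7% and 23.4% in PE+TSA, against 6.11% and 7.53% in PE. Both genes therefore stood higher in the hairpin libraries on either scale, and the 2 hairpin libraries, nearly equal in FPKM, were apart on this one because their Tnnt2 levels were 4354 and 1835 FPKM. Hspb6 was at 10.3% and 20.7% of Tnnt2 in PE+TSA+shJIP1, 4.9% and 9.35% in PE+TSA, against 9.24% and 8.84% in PE, so that on this scale its PE+TSA and PE groups overlapped.

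**Figure D3:**
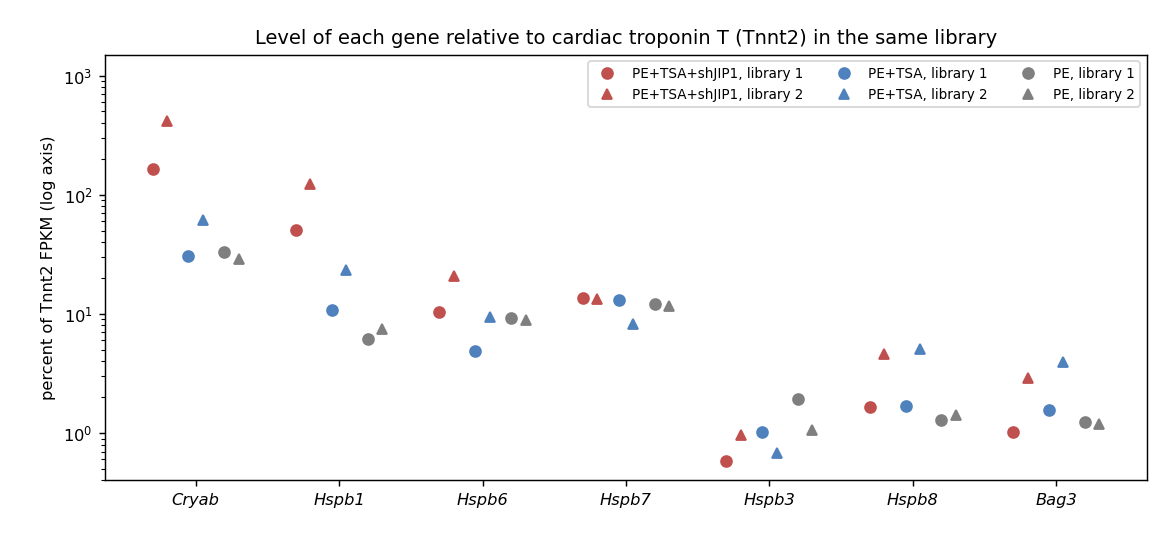
Level of each listed member as a percentage of the Tnnt2 level in the same library (log axis), with PE+TSA+shJIP1, PE+TSA and PE from left to right for each gene; circles are replicate 1 and triangles replicate 2. Hspb7 stays between 8.28% and 13.6% in all 6 libraries, while Cryab reaches 165% and 418% in the hairpin libraries.

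Other chaperones and related genes gave 1 call in the 3 comparisons. In 7 lists (other members of the small heat shock family, other BAG proteins, heat shock factors, HSP70 and HSP110, HSP40, HSP90 with co-chaperones, and chaperonins), 50 features were tested. None of the 50 passed with TSA or with the hairpin in limma, and 1 rose against PE. At an unadjusted p under 0.05 there were 8 with TSA, 4 with the hairpin and 15 against PE, where 18.7%, 14.9% and 30.7% of all features reached it, and 8.27% of all features passed against PE after adjustment. That gene was Hspa2, an HSP70 abundant in testis, at 40 and 62.6 FPKM in PE+TSA+shJIP1, 25.7 and 36 FPKM in PE+TSA, and 8.93 and 9.14 FPKM in PE (log2 change 2.35 ± 0.29 against PE, limma adjusted p = 0.0157). With each library left out in turn, it passed only without PE replicate 1 (limma adjusted p = 0.0372). The heat-inducible Hspa1b was listed at 0 to 0.802 FPKM and Hspa8, the constitutive HSP70, at 0 to 0.185 FPKM. Neither reached the limit on low values, and since Hspa8 is a gene that every cell uses, its values may be failed estimates.

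Of 3 heat shock factor features none passed in any comparison, and 1, 0 and 2 had an unadjusted p under 0.05 with TSA, with the hairpin and against PE. Hsf2, a relative of Hsf1, differed by 0.51 ± 0.20 with TSA and 0.73 ± 0.20 against PE (limma adjusted p = 0.244 and 0.0708), and Hsbp1, which binds and restrains Hsf1, by 1.02 ± 0.34 against PE (adjusted p = 0.107). Hspb11, an intraflagellar transport protein, was at 4.73 and 4.85 FPKM in PE+TSA+shJIP1, 5.49 and 2.82 FPKM in PE+TSA, and 7.37 and 7.4 FPKM in PE (limma adjusted p = 0.304 with TSA). Of the BAG proteins, Bag6, a chaperone of membrane protein targeting, differed by -0.80 ± 0.21 with the hairpin (adjusted p = 0.180), and Bag2, an inhibitor of the ubiquitin ligase CHIP, by -0.73 ± 0.22 with TSA (adjusted p = 0.169).

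From each remaining chaperone list, the 2 features with the smallest p among those without a call are given here. Hspa4l differed by 1.09 ± 0.25 with TSA and Hspa14 by 0.77 ± 0.22 against PE (limma adjusted p = 0.119 and 0.0775). The HSP40 genes Dnajb12 and Dnajb5 differed by -0.88 ± 0.23 against PE and -0.76 ± 0.23 with TSA (limma adjusted p = 0.0633 and 0.167). Hsp90aa1, the inducible HSP90, differed by 0.44 ± 0.20 with the hairpin, and Fkbp5, a co-chaperone of steroid receptors, by 0.74 ± 0.34 against PE (adjusted p = 0.374 and 0.200). The chaperonin subunits Cct7 and Cct2 differed by 0.67 ± 0.21 and 0.63 ± 0.22 against PE (adjusted p = 0.0923 and 0.112). List medians with the hairpin were 0.11 for HSP70 and HSP110, 0.12 for HSP40, 0.34 for HSP90 with co-chaperones and 0.14 for chaperonins. Over the 7 lists together, 37 of the 50 changes with the hairpin were positive and 13 negative, where the median of all features was -0.003. This split was not tested.

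Among 12 features of Bag3 partners in chaperone-assisted autophagy, 2 rose with the hairpin and the same 2 against PE, where 0.183% and 4.11% of all features rose. The list was chosen with earlier results of these data known, so these shares are a description and not a test. None passed with TSA, where 3 had an unadjusted p under 0.05, as did 18.7% of all features. Flnc, filamin C, the Z-disc cross-linker that Bag3 and Hspb8 clear when it is damaged, was at 222 and 232 FPKM in PE+TSA+shJIP1, 37.1 and 26.6 FPKM in PE+TSA, and 74.8 and 71.8 FPKM in PE. Its change was 2.81 ± 0.22 with the hairpin and 1.62 ± 0.22 against PE (limma adjusted p = 0.0241 and 0.0174). Amotl2, an angiomotin that binds the WW domain of BAG3 in human cells, was at 255 and 294 FPKM in PE+TSA+shJIP1, 68 and 69.4 FPKM in PE+TSA, and 52.8 and 65.9 FPKM in PE, a change of 1.98 ± 0.20 with the hairpin and 2.19 ± 0.20 against PE (limma adjusted p = 0.0339 and 0.0115). With each library left out in turn, the adjusted p with the hairpin was 0.0405 to 0.155 for Flnc, which passed only without PE+TSA replicate 1, and 0.0656 to 0.224 for Amotl2. Against PE both passed only without PE replicate 1. Flna, the widely expressed filamin, differed by 0.78 ± 0.21 with the hairpin, and the autophagosome gene Map1lc3b by 1.15 ± 0.35 with TSA (adjusted p = 0.189 and 0.167).

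Of 11 genes in a list of filament and Z-disc proteins, 1 fell with TSA, none passed with the hairpin (5 at an unadjusted p under 0.05), and against PE 1 rose and 2 fell. Over all features 0.811%, 0.29% and 8.27% passed in these comparisons, and 14.9% had an unadjusted p under 0.05 with the hairpin. Des, the intermediate filament desmin and classical client of alpha-B crystallin, was at 688 and 647 FPKM in PE+TSA+shJIP1, 254 and 190.1 FPKM in PE+TSA, and 860.3 and 747 FPKM in PE. It fell by 1.86 ± 0.23 on the log2 scale with TSA (limma adjusted p = 0.0372), and with the hairpin it differed by 1.60 ± 0.23 (adjusted p = 0.0751). Leaving out any one library ended the call with TSA (limma adjusted p = 0.0534 to 0.310). Against PE, skeletal actin Acta1 rose by 1.26 ± 0.27, whereas Vim, vimentin, changed by -1.16 ± 0.19 and Myoz2, a calcineurin-binding Z-disc protein, by -1.65 ± 0.33 (limma adjusted p = 0.0442, 0.026 and 0.0388). Leaving out any one library ended the calls of Acta1 (limma adjusted p = 0.0636 to 0.249) and Myoz2 (0.0793 to 0.213), and that of Vim held only without PE replicate 1 (0.0399). With quantile normalization the change of Acta1 was 0.75 (limma adjusted p = 0.133). Capza1, a capping protein of actin, differed by -0.99 ± 0.22 with the hairpin (limma adjusted p = 0.140). Actc1, cardiac actin, differed by -2.35 ± 0.63 with TSA and -2.52 ± 0.63 against PE (limma adjusted p = 0.147 and 0.0597). None of 6 features for 14-3-3 proteins passed in any of the 3 comparisons, with 1, 1 and 2 at an unadjusted p under 0.05. Ywhab and Ywhah differed most by p, at 0.89 ± 0.28 and -0.78 ± 0.24 against PE (limma adjusted p = 0.0967 and 0.0874).

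Among markers of the cell types in such cultures, none passed with the hairpin, and no endothelial or macrophage marker passed in any of the 3 comparisons. Of 10 cardiomyocyte markers none passed with TSA or the hairpin (3 and 2 at an unadjusted p under 0.05) and 2 fell against PE. Over all features 18.7% and 14.9% had an unadjusted p under 0.05 with TSA and with the hairpin, and 4.16% fell against PE. Pln, phospholamban, the inhibitor of the calcium pump, changed by -2.55 ± 0.58 and Tnni3, cardiac troponin I, by -2.10 ± 0.36 (limma adjusted p = 0.049 and 0.0275). Of 7 smooth muscle and pericyte features tested, Acta2 fell with TSA and Acta2, Cspg4 and Myh11 fell against PE. Of 8 fibroblast features Thy1 rose with TSA and against PE while Dcn fell against PE. Over all features 0.183% fell and 0.627% rose with TSA, and 4.11% rose against PE. At an unadjusted p under 0.05 with TSA there were all 7 smooth muscle and pericyte features and 4 of the 8 fibroblast features. Of the 7 smooth muscle and pericyte changes with TSA, 6 were negative and 1 positive. Thy1 was the only positive one of the 8 fibroblast changes with TSA. The calls of Pln, Tnni3, Myh11 and Dcn, and that of Acta2 with TSA, were lost in limma whichever library was left out, and the others passed only without PE replicate 1. The part of these markers in the members' values was not tested.

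**Figure D4:**
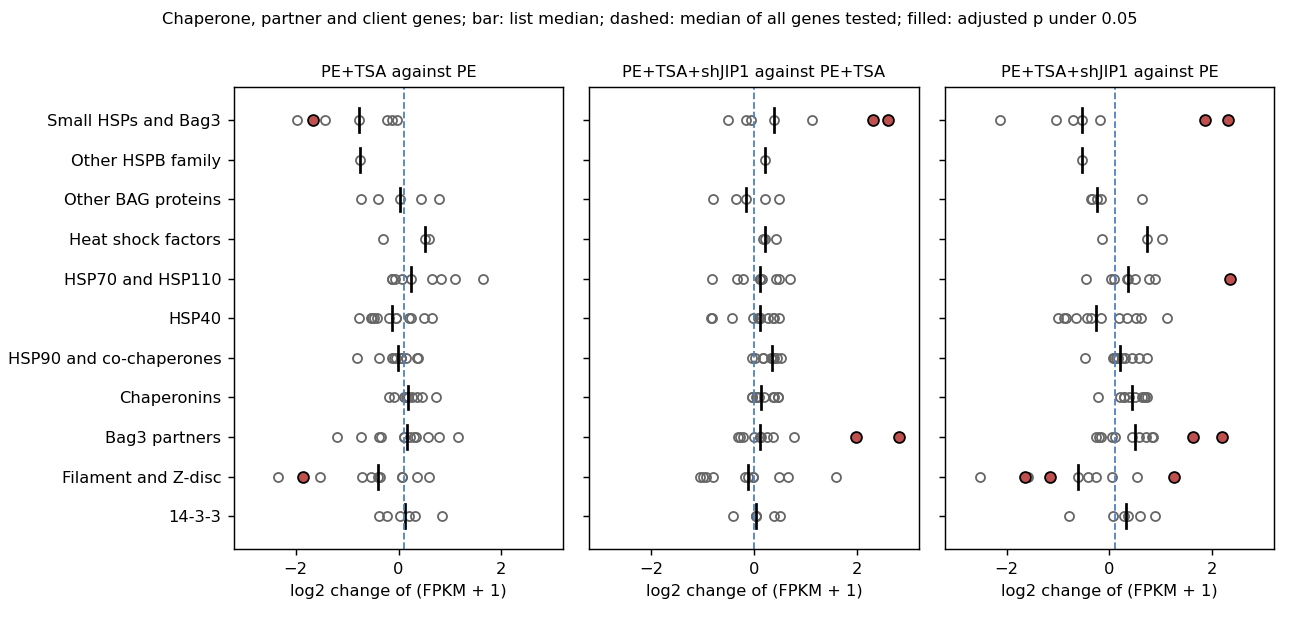
Log2 change of FPKM + 1 (horizontal axis) of every tested feature in 11 gene lists for the 3 comparisons; black bars are list medians, the dashed line the median of all features tested, and filled points have a limma adjusted p under 0.05. With the hairpin the filled points are Cryab and Hspb1 among the small heat shock proteins and Flnc and Amotl2 among the Bag3 partners, and the 50 features of the 7 other chaperone lists hold none.

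The members did not share a single pattern over the 6 libraries, as some pairs went together and others went opposite ways. Log2 levels of Cryab and Hspb1 correlated at r = 0.953 and those of Hspb3 and Hspb7 at 0.881, whereas Bag3 correlated with Hspb1 at -0.858 and with Cryab at -0.717 (Pearson, 6 libraries in 3 groups, a description without a test). Among 2842 features that averaged 5 FPKM or more and had an SD of 0.5 or more on the log2 scale, the closest pattern to Cryab was that of Lin7c (r = 0.996), at 91.1 and 86.6 FPKM in PE+TSA+shJIP1, 29.5 and 27.8 FPKM in PE+TSA, and 41.9 and 33.7 FPKM in PE. For Hspb1 it was Etnk1 (r = 0.994), for Hspb6 Tnfrsf12a (0.996), for Hspb7 Myom1 (0.987), for Hspb3 Nuf2 (0.994), for Bag3 Tmem41b (0.993) and for Hspb8 Ccl3 (0.972). Each was picked as the highest r among 2842 candidates over only 6 libraries. Such a search yields high values by itself, so these genes are a description and not partners found by a test.

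The mean pattern of the 7 members, each centred on its own mean, was closest to that of Csrp3 (r = 0.978), Cfl2 (0.976), Tagln (0.973), Des (0.973) and Adprhl1 (0.972). These too were picked as the highest values among the same candidates. Csrp3, which encodes a LIM protein of muscle, was at 549 and 296 FPKM in PE+TSA+shJIP1, 194 and 121 FPKM in PE+TSA, and 526 and 339.7 FPKM in PE.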

How the data were processed

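The authors deposited 1 table of FPKM values (fragments scaled to transcript length and sequencing depth) with a column for each of 6 libraries. Its header names no unit; Cufflinks and rn6 are listed, per the submitters' processing notes, without version or role, and the unit was read from these and from the values. Which aligner, annotation and filters were used is not given in the sources used here. Reads shared between paralogs or overlapping genes may have been split.

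Of 13843 features, the 10359 averaging 1 FPKM or more were tested on log2(FPKM + 1) with limma 3.58.1 in R 4.3.3. The model had 1 mean per group over all 6 libraries, with a variance prior trended on expression (residual degrees of freedom 3, prior 3.27). P-values are two-sided, adjusted by Benjamini and Hochberg over all features tested, with a threshold of 0.05. The fit was run on simulated data drawn from its own variance estimates with libraries of equal spread. Such data hold no shallow library, so this run does not bear on whether the calls are right.

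Relative depth came from the most frequent ratio of values below 0.3 FPKM (higher for the shallow library), held by 21 to 48 features; no counting interval was computed. The members and gene lists were chosen with earlier results of these data known. From each list, features past the threshold were named, and the 2 others with the smallest p (for cell type markers, called features only). The closest patterns were taken by Pearson r. Promoter sequences are from RefSeq (GRCr8), where 6 members matched by symbol. Alternatives were another pseudocount, filters, scalings, variance models, 2-group fits, the replicate block, and each library left out.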

Additional observations from a re-analysis of the deposited data

How the results depend on the processing

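Each of 45 results was refitted under 14 alternatives. Calls by limma at 2 libraries per group rest on few degrees of freedom, and the causes of the lost calls were not tested. Members called with TSA (1), with the hairpin (2) and against PE (2) became 0, 0 and 1 with no filter on low values, 0 and 0 for the first 2 with a constant prior variance, 0, 0 and 0 with a fit of the 2 compared groups only, and 1 and 1 for the last 2 with quantile normalization. Leaving out each library in turn gave 0 to 0, 0 to 0 and 0 to 2 members. Features called over the table (84, 30 and 857) became 3, 0 and 374 with no filter, 36 and 2 for the first 2 with a constant prior variance, and 5, 8 and 4 with 2 groups only. Leaving out each library gave 6 to 203, 7 to 16 and 4 to 941. The labels do not state that replicate numbers pair the libraries, and same-numbered deviations over all features correlated at 0.0396 to 0.122. Single genes could still share a difference between replicates. Hspb3, Hspb6 and Hspb7 were higher in replicate 1 of every group, Hspb1 was lower, and the other members were mixed. With the replicate block 28, 18 and 1063 features and 1, 2 and 3 members were called, Hspb3 falling against PE. The block lowered the SE with TSA from 0.635 to 0.358 for Hspb7 and from 0.584 to 0.285 for Hspb3. A change of sign occurred only where a library was left out and only among changes without a call: with TSA Hspb1 ranged from -0.066 to 0.025 and Hspb8 from -0.38 to 0.14, and with the hairpin Hspb3 ranged from -0.92 to 0.63, Hspb7 from -0.47 to 1.23 and Hspb8 from -0.33 to 0.20. The 18 calls in the other lists, refitted in the same way after the data were seen, kept their direction throughout; 9 were lost whichever library was left out, and the other 9 passed without 1 library only. For Flnc with the hairpin that library was PE+TSA replicate 1, and for the others it was PE replicate 1. Without PE replicate 1 the shallow PE replicate 2 was the only PE library. With TSA the median change of all features, 0.10 on deposited values, became 0.040 under trimmed-mean scaling and -0.021 under quantile normalization.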
